A study of Arabidopsis thaliana with 4 samples.

Results

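AT3G27400 and AT1G67750 are 2 pectate lyase genes of *Arabidopsis thaliana*, each read by 1 probe set on Affymetrix expression arrays of RKD4-inducible and control seedlings. They are 2 of 13286 genes that the table of the platform's probe annotation assigns a probe set of 1 gene. Both were selected on the change of their signal between RKD4-inducible and control seedlings on these same arrays. Their values are therefore given as a description with no test.

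The RKD4-inducible line (UAS-RKD4 35S-GVG) carries RKD4 behind a UAS promoter together with 35S-GVG, and the control line carries 35S-GVG alone. Both are in the Col-0 ecotype. GVG is a chimeric transcriptional activator that works when dexamethasone is present, made here from the 35S promoter, which is active in most plant tissues. RKD4 is a transcription factor of the RWP-RK family, known from the early embryo. Whole seedlings of both lines were kept at 23 °C under a day of 16 h and a night of 8 h, were moved to 1 µM dexamethasone 2 days after germination, and were harvested 24 h later, at 3 days. Each group holds 2 arrays, each from its own pool of 60 seedlings. Both lines carry GVG and both received the drug, and no array without it is among the samples. An effect of RKD4 therefore cannot be told apart from another difference between the lines. No probe set was assigned to RKD4, so its induction and the labels could not be checked. Over 22746 probe sets the arrays had median signals of 175 to 185, and precision is limited by their number.

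Pectin is the gel-like polysaccharide of the primary wall and of the layer that glues plant cells together. Its main part, homogalacturonan, is delivered to the wall with methyl esters, which pectin methylesterases remove. Pectate lyases then cut the de-esterified chain by an elimination reaction that needs calcium, while polygalacturonases cut it by hydrolysis. Such cuts are known to accompany cell expansion, cell separation and the growth of pollen tubes. In Arabidopsis the lyases form a large gene family.

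AT3G27400 had far less signal in the RKD4-inducible line than in the control line. It read 52.9 and 45.8 in RKD4-induced replicates 1 and 2, against 277 and 303 in control replicates 1 and 2. Both induced arrays lay below both control arrays, and the pairs within each group lay close together. The group means were 49.4 ± 5.04 in RKD4-induced and 290 ± 18.7 in control seedlings (SD, n = 2 each), so 17.0% of the control signal was left. Over the 4 pairings of an induced with a control array the control signal was 5.23 to 6.62 times higher.

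Signal of AT1G67750 was also lower, by a smaller factor. It read 976 and 1156 in RKD4-induced replicates 1 and 2, against 2529 and 2354 in control replicates 1 and 2. The groups again did not overlap, and the transcript stayed far above the weak end of the array in all 4 pools. The means were 1066 ± 127 in RKD4-induced and 2442 ± 123 in control seedlings (SD, n = 2 each), which leaves 43.7% of the control signal. Control arrays were 2.04 to 2.59 times higher over the 4 pairings. In 35.8% of all genes both induced arrays lay below both control arrays, and nothing is read from the position of these genes against it, since they were picked for it. In whole seedlings, fewer cells that carry a transcript and less of it per cell cannot be told apart.

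**Figure D1:**
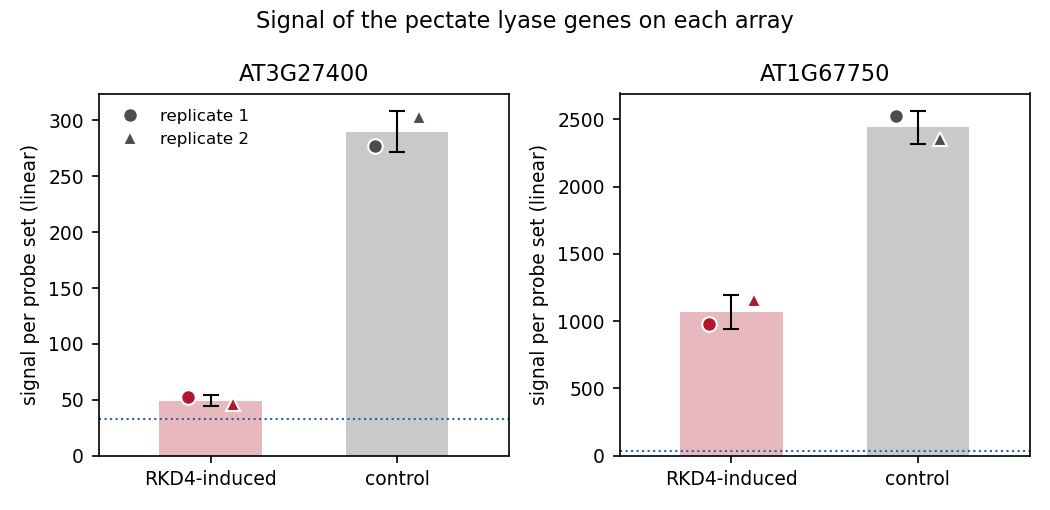
Signal per probe set on a linear axis for AT3G27400 (left) and AT1G67750 (right). Circles and triangles are replicates 1 and 2, bars the group mean and error bars the SD (n = 2 per group), and the dotted line marks 32.4, the pseudocount. AT3G27400 lies at 45.8 and 52.9 in RKD4-induced seedlings, just above that line, and AT1G67750 at 976 and 1156, far above it.

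On the log2(signal + 32.4) scale, where 32.4 is the 25th percentile of all signals, the change of RKD4-induced over control was -1.98 for AT3G27400 and -1.17 for AT1G67750. This scale understates the change of weak genes. The induced signal of AT3G27400 was 1.41 to 1.63 times the pseudocount, so its change is the more affected, and with a pseudocount of 1 it was -2.53, against -1.20 for AT1G67750. The change of AT3G27400 was 0.80 further from 0 than that of AT1G67750 on the main scale, a difference that was not tested. In the order of log2 changes from the lowest up, AT3G27400 stood at place 11 and AT1G67750 at place 175 of 13286 genes. The median change of all these genes was -0.07.

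The arrays of a group differed as follows, which is given as a description, since the genes were selected on a change that a small spread favours. Within groups the residual SD was 0.0863 for AT3G27400 and 0.129 for AT1G67750 on the log2 scale. Probe sets within 0.5 log2 units of the same mean had a median residual SD of 0.158 around AT3G27400 and of 0.110 around AT1G67750. Of those probe sets 19.4% had a smaller SD than AT3G27400 and 60.6% a smaller SD than AT1G67750. The higher array of a group exceeded the lower by 1.16 times (RKD4-induced) and 1.10 times (control) for AT3G27400, and by 1.18 times (RKD4-induced) and 1.07 times (control) for AT1G67750.

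**Figure D2:**
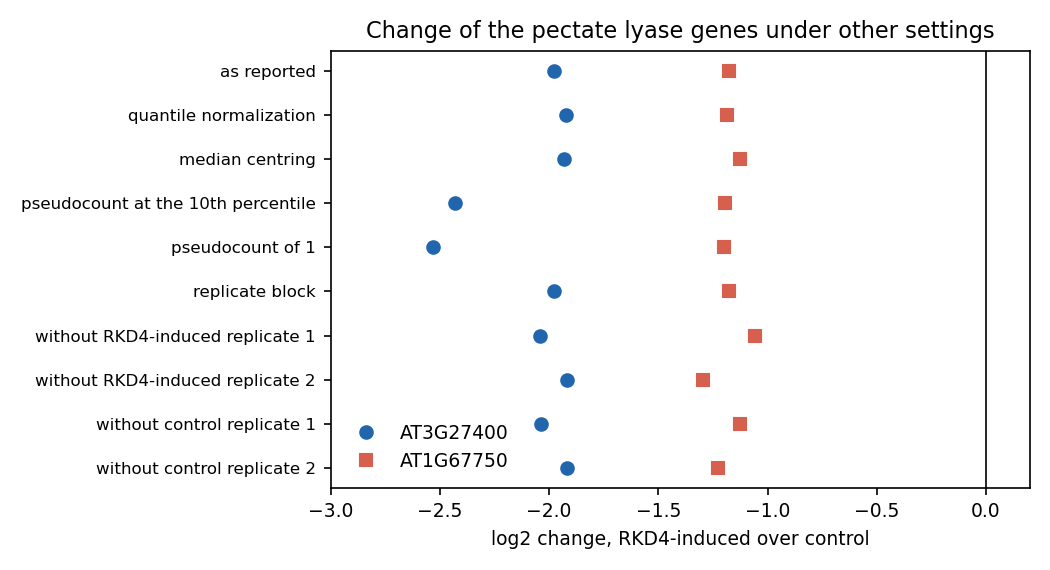
Log2 change of RKD4-induced over control for AT3G27400 (circles) and AT1G67750 (squares) with other scalings, other pseudocounts, the replicate number as a block, and each array left out in turn. AT3G27400 runs from -2.53 to -1.92 and moves with the pseudocount, while AT1G67750 runs from -1.29 to -1.06.

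The rest of the pectate lyase family was read from a list of 26 loci, of which 23 had a probe set of 1 gene. This list and the pectin lists below were chosen with earlier results of these data known. Their counts are therefore given as a description. Of the 21 genes besides AT3G27400 and AT1G67750, 6 fell and 15 did not pass limma's test with Benjamini-Hochberg adjustment over all probe sets at an adjusted p of 0.05. Over all genes 10.4% fell and 9.60% rose at that adjusted p. None of the 21 rose by that test. At an unadjusted p under 0.05 in limma, 10 of the 21 were lower and 1 was higher in RKD4-induced seedlings, against 19.3% lower and 14.0% higher over all genes. The median log2 change of the 21 was -0.45, against -0.07 over all genes.

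The largest fall among these relatives was that of AT5G63180, which read 328 and 321 in RKD4-induced seedlings and 959 and 996 in control seedlings. Its log2 change was -1.50 ± 0.11 (SE, adjusted p 0.000614, limma), between those of AT3G27400 and AT1G67750. AT1G04680 read 580 and 484 in RKD4-induced seedlings against 1538 and 1277 in control seedlings, and fell by 1.35 ± 0.14 (adjusted p 0.00204, limma). AT3G09540 read 117 and 76.9 in RKD4-induced seedlings against 283 and 266 in control seedlings, and fell by 1.27 ± 0.20. These 3 genes kept 33.2%, 37.8% and 35.3% of their control signal, in the order named. The other 3 falls were smaller: AT3G07010 fell by 0.72 ± 0.15, AT3G53190 fell by 0.65 ± 0.11 and AT3G55140 fell by 0.45 ± 0.12. For AT3G09540 and these 3 genes the adjusted p lay between 0.00795 and 0.0434 in limma. AT3G55140 lost its call with quantile normalization (adjusted p 0.0522) and median centring (0.064).

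Among the other relatives that did not pass, AT4G24780, AT5G48900 and AT3G24670 were well expressed. AT4G24780 read 1774 and 1750 in RKD4-induced seedlings against 1900 and 1829 in control seedlings, a log2 change of -0.08 ± 0.09 (adjusted p 0.594, limma). AT5G48900 read 753 and 873 in RKD4-induced seedlings against 654 and 804 in control seedlings, a log2 change of 0.15 ± 0.14 (adjusted p 0.494, limma). Signals of AT5G48900 overlap between the groups. Those of AT4G24780 lie close together, with both induced arrays below both control arrays. AT3G24670 (-0.42 ± 0.12, adjusted p 0.0538) and AT5G04310 (-0.61 ± 0.18, adjusted p 0.0554) missed the threshold narrowly in limma.

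Many pectate lyase transcripts were weak in these seedlings, and their values say little about change. AT1G30350, AT59 (AT1G14420), AT2G02720 and AT5G15110 read under the pseudocount on all 4 arrays, and AT59 did not exceed 4.45. AT5G09280 averaged 29.3 ± 11.5 in RKD4-induced and 11.5 ± 0.661 in control seedlings, and AT3G01270 averaged 15.1 ± 16.3 in RKD4-induced and 28.8 ± 8.26 in control seedlings (SD, n = 2 each). The log2 changes of AT1G11920 (-0.65), AT5G55720 (-0.64), AT4G13710 (-0.59), AT4G13210 (-0.51) and AT3G24230 (-0.29) came with SE between 0.21 and 0.29, and none passed. Among genes whose mean over the 4 arrays was above 179, the median of all values, 6 of 9 other pectate lyases fell, against 16.8% of 6063 genes. That restriction was chosen after the values were seen. Its mean takes in the control arrays, so a gene that falls can enter through its control signal alone. AT3G09540 did so, with means of 275 in control and 96.9 in RKD4-induced seedlings. The share is therefore a description, and nothing is concluded from it.

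The count of 6 was lower with any array left out, as was the count over all probe sets. Each such fit leaves 1 array in a group. Only AT5G63180 and AT1G04680 kept their calls in every such fit. The log2 change there spanned -1.53 to -1.47 for AT5G63180, -1.48 to -1.22 for AT1G04680 and -1.49 to -1.04 for AT3G09540. It spanned -0.90 to -0.54 for AT3G07010, -0.73 to -0.57 for AT3G53190 and -0.48 to -0.41 for AT3G55140.

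**Figure D3:**
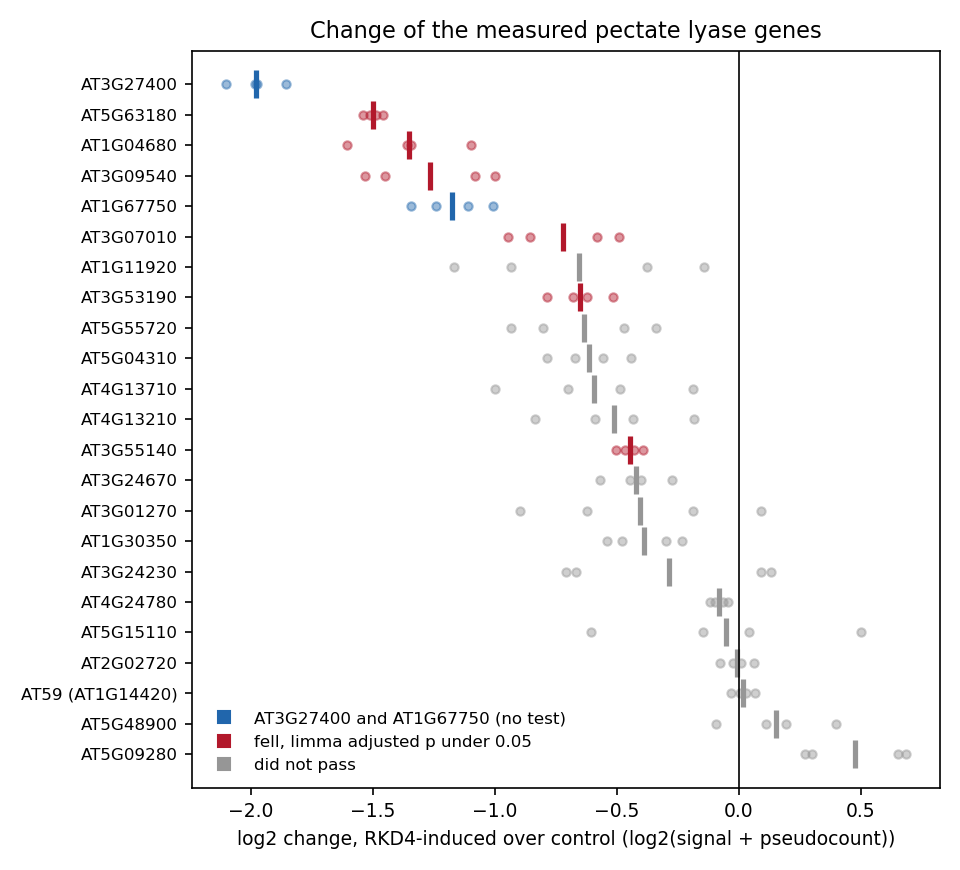
Log2 change of RKD4-induced over control for the 23 measured pectate lyase genes, on the log2(signal + 32.4) scale. Dots are the 4 pairings of an induced with a control array and the upright tick is the mean change, in blue for AT3G27400 (-1.98) and AT1G67750 (-1.17), in red for the 6 relatives that fell, and in grey for the 15 that did not pass. The dots of the falling genes all lie left of 0, as do those of some genes in grey. This holds for 14 of the 21 relatives in all, against 35.8% of all genes.

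Genes of the other steps of pectin metabolism and of pectin sensing were followed through 7 more lists, written by locus, with 49 measured genes. Of these, 11 fell (22.4%, against 10.4% of all genes) and 3 rose (6.12%, against 9.60%). Their median log2 change was -0.25, against -0.07 over all genes. The lists were read unevenly: 28 of 45 methylesterases were measured, but 2 of 19 homogalacturonan synthesis genes.

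Among the enzymes that act on the finished chain, 1 of 4 polygalacturonase genes fell, AT1G48100. It read 67.8 and 63.4 in RKD4-induced seedlings against 283 and 342 in control seedlings, and fell by 1.81 ± 0.17 (adjusted p 0.00145, limma). The other 3, AT5G14650 (-0.39 ± 0.18), AT1G78400 (-0.28 ± 0.23) and ADPG1 (-0.03 ± 0.21), did not pass and read at most 39.1. Of 4 pectin acetylesterase genes, whose enzymes remove acetyl groups, AT1G57590 fell. It read 75.3 and 43.3 in RKD4-induced seedlings against 284 and 337 in control seedlings, and fell by 1.92 ± 0.22 (adjusted p 0.00286, limma). The remaining acetylesterases AT3G05910 (-0.37 ± 0.10, adjusted p 0.0514), AT3G09405 (-0.32 ± 0.22) and AT3G09410 (-0.18 ± 0.14) did not pass. AT1G48100 and AT1G57590 thus kept 21.0% and 19.1% of their control signal. Over all genes 10.4% fell, so 1 fall among 4 measured genes says little about either family. Of the 4 polygalacturonase genes 2 read under the pseudocount on every array.

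The pectin methylesterases expose the chain to lyases. Of 28 measured genes 4 fell (14.3%), 3 rose (10.7%) and 21 did not pass. These shares lie near the 10.4% and 9.60% of all genes, and the median log2 change of -0.11 lies near that of all genes (-0.07). PME61 (AT3G59010) read 207 and 190 in RKD4-induced seedlings against 83.0 and 44.3 in control seedlings, and rose by 1.29 ± 0.24 (adjusted p 0.0134, limma). ATPMEPCRD (AT2G43050) rose by 1.15 ± 0.21, while AT5G64640 fell by 1.09 ± 0.25 (-1.66 with a pseudocount of 1) and AT5G04960 fell by 0.97 ± 0.16. Of 8 genes for inhibitors of these enzymes 2 fell. AT4G25250 fell by 1.31 ± 0.22 and AT1G62770 fell by 0.91 ± 0.18. AT4G25260, another inhibitor gene, did not pass (-0.45 ± 0.13, adjusted p 0.0582 in limma). AT1G56100 read 16.1 and 28.3 in RKD4-induced seedlings against 5.70 and 2.09 in control seedlings, all under the pseudocount. It did not pass (0.58 ± 0.18, or 2.30 with a pseudocount of 1), so its size rests on the pseudocount.

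Few genes of pectin synthesis and sensing were measured. AT3G49720, of the homogalacturonan synthesis list, fell by 0.69 ± 0.11, and GAUT15, a galacturonosyltransferase, did not pass (0.26 ± 0.21). AT5G15740, the single measured gene of the sugar supply and side chain list, fell by 0.57 ± 0.15 with an adjusted p of 0.0434 in limma. Of the wall-sensing receptor kinases THE1 fell by 0.50 ± 0.12, and FER read 1960 and 1633 in RKD4-induced seedlings against 1887 and 1647 in control seedlings and did not pass (0.02 ± 0.13).

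Counting all lists together, 17 of 70 pectin genes other than AT3G27400 and AT1G67750 fell (24.3%, against 10.4% of all genes) and 3 rose (4.29%, against 9.60%). As the lists were chosen with earlier results of these data known, these shares are no independent evidence of a common fall. Those 20 calls became fewer with any array left out, as did the calls over all probe sets. Each such fit leaves 1 array in a group. With either induced array left out, limma called falls alone. Of the genes named above from these 7 lists, AT1G48100 and AT1G57590 kept their calls with any array left out (adjusted p up to 0.0252 and 0.0344 in limma), and each of the others that passed lost its call in at least 2 of 4 cases.

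**Figure D4:**
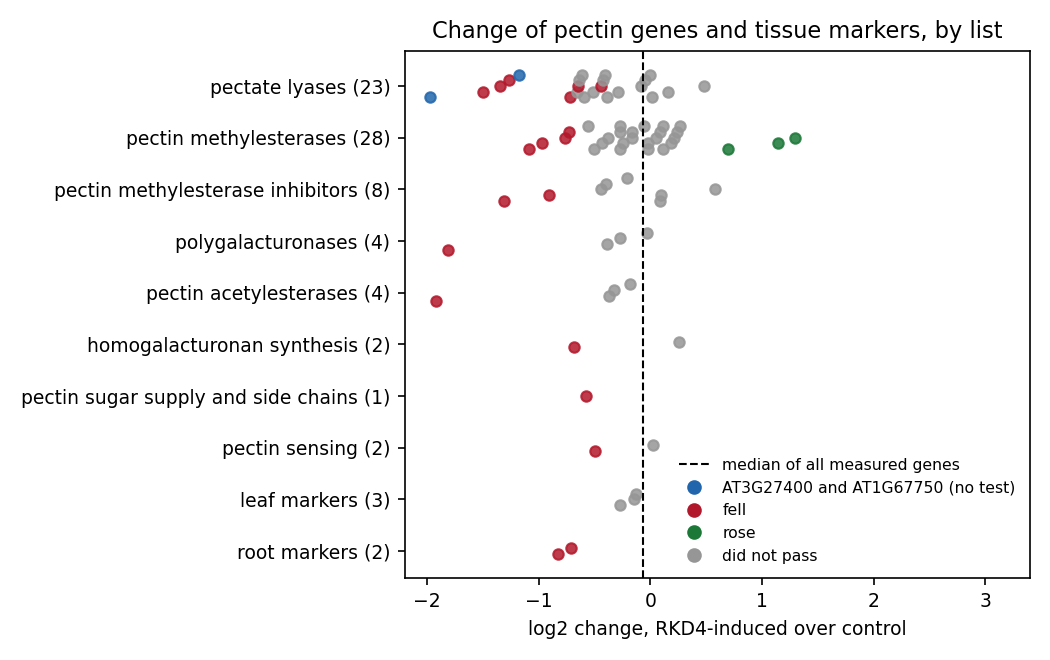
Log2 change of RKD4-induced over control for each measured gene of the pectin lists and of the leaf and root marker lists, with the number of measured genes in brackets. Each dot is 1 gene, set apart up and down only for legibility, and the dashed line is the median of all measured genes (-0.07). Most coloured dots lie left of the line, and the 3 rises are all methylesterase genes.

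Seedling tissue was checked through leaf and root markers. The leaf markers RCA, LHCB4.1 and PSAN, the measured 3 of 8, were strong on every array, between 16242 and 41794. Their log2 changes of -0.15, -0.13 and -0.27 did not pass. The root hair expansin genes EXPA7 and EXPA18, the measured 2 of 9 root markers, fell by 0.83 ± 0.15 and 0.71 ± 0.15 (adjusted p 0.0126 and 0.0205, limma), and lost their calls in 3 of 4 cases with an array left out. EXPA7 read 337 and 352 in RKD4-induced seedlings against 722 and 560 in control seedlings. These markers kept 53.7% and 59.2% of their control signal, AT3G27400 17.0% and AT1G67750 43.7%. The part of root hair cells in the lower lyase signals was not tested. Of 5 egg cell markers 2 were measured. EC1.5 read 2402 and 2106 in RKD4-induced seedlings against 1.30 and 1.62 in control seedlings, and EC1.2 stayed under the pseudocount on all arrays.

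Genes with the most similar pattern over the 4 arrays were found by the Euclidean distance between log2 profiles, each centred on its own mean, over 13285 genes. Nearest to AT3G27400 were AT5G44050 (distance 0.123), AT1G02360 (0.184), AT3G28220 (0.194), AT1G48100 (0.196) and AT2G23910 (0.253), with log2 changes between -1.93 and -1.80. Among these AT1G48100 is the polygalacturonase gene described above. Nearest to AT1G67750 were AT1G11850 (distance 0.0364), AT4G19880 (0.0550), scpl31 (0.0790), AT4G00750 (0.0990) and MSRB5 (0.105), with log2 changes between -1.24 and -1.11. The pair itself was 0.858 apart, which places AT1G67750 at 166 in the order of AT3G27400 and AT3G27400 at 2789 in that of AT1G67750. The distance is taken over 4 arrays in 2 groups, so it depends mainly on the size of the change.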

How the data were processed

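The authors deposited an intensity per probe set and array, unlogged, which they had summarised and scaled. GCOS is named in the submitters' processing notes, without a version. Per the labels, biotin was added with an Affymetrix 3' IVT kit. The 2% trimmed mean was near 500.05 on every array, so no rescaling was done. Detection calls were not used. After 64 control probe sets were left out, log2(signal + 32.4) of 22746 probe sets was fitted with limma 3.58.1 in R 4.3.3, with the group as the only term and a variance trend. P-values were two-sided and adjusted by Benjamini-Hochberg at 0.05. SE are those of limma, which draws the variance of each probe set toward a trend over all probe sets. The spread behind them is that between these pools alone. With 2 against 2 arrays an exact permutation test reaches 0.333 at best, so none was run. The fit was first tested on simulated data.

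Of 13513 probe sets with 1 gene in the platform annotation 13436 matched the TAIR10.1 gene table. Where several probe sets read a gene, the brightest on average was taken. Coordinates are left out, as the array's build is not known. The family lists were written by locus from general knowledge, since the table names most of these genes by locus alone. The genes and lists were chosen with earlier results of these data known. Named were all pectate lyases, the 4 largest changes of each other pectin list, the tissue markers and the 5 nearest patterns of each gene. The fit was repeated after quantile normalization or median centring, with pseudocounts of 1 or the 10th percentile, without probe sets below the 30th percentile in mean signal, without the trend, with replicate number as a block, with every probe set counted, and without each array.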

Additional observations from a re-analysis of the deposited data

How the results depend on the processing

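Every log2 change of AT3G27400 and AT1G67750 stayed negative under the scalings, pseudocounts, block and left-out arrays tried. For AT3G27400 it was -2.43 with the pseudocount at the 10th percentile and -2.53 with a pseudocount of 1, since the pseudocount weighs on its low induced signal, and -2.04 to -1.92 with an array left out. For AT1G67750 it was -1.29 to -1.06 with an array left out. With an array left out 1835 to 2223 probe sets passed, against 4954, and 7 to 10 pectin genes, against 20. Those fits have fewer residual degrees of freedom. Under the other settings 4334 to 6301 probe sets and 17 to 24 pectin genes passed. The 17 are those above the median signal, a restriction added after seeing the data. A gene can meet it through its control signal alone. Median centring turned the split of all calls, with 2578 higher and 2283 lower, against 2281 and 2673, and left 15 falls and 3 rises among pectin genes. The labels do not say that same-numbered arrays share a batch, and their deviations correlated at 0.0807. The replicate block left the log2 changes at -1.98 and -1.17 and gave 6301 probe sets and 23 pectin genes. AT3G55140 and AT5G15740 lost their calls with quantile normalization, median centring and no variance trend, and THE1 with no variance trend. With an array left out AT3G55140, AT5G15740 and THE1 lost theirs in 4 of 4 cases.

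Of 525 values of the other named genes 440 kept direction and side of the threshold. Calls were gained by 4 genes that had missed the threshold. AT3G24670, AT4G25260 and AT3G05910 passed with the replicate block (adjusted p 0.0234, 0.0231 and 0.0211 in limma), without dim probe sets and with a pseudocount of 1, and AT5G04310 without dim probe sets (0.0190) and without the variance trend (0.0407). Values that changed sign belong to genes that did not pass, and the cause was not tested. With other scalings or pseudocounts, AT5G15110 lay at 0.0659 (pseudocount of 1), AT2G02720 at 0.00214 (quantile normalization) and 0.0429 (median centring), ADPG1 at 0.00451 (quantile normalization) and 0.0172 (median centring), and EC1.2 at -0.20 (pseudocount of 1). Over the fits without 1 array, changes spanned -0.38 to 0.27 for AT5G15110, -0.69 to 0.11 for AT3G24230, -0.0129 to 0.0491 for AT59, -0.0493 to 0.0359 for AT2G02720, -0.25 to 0.18 for ADPG1, -0.59 to 0.0380 for AT1G78400, -0.11 to 0.15 for FER, -0.30 to 0.00439 for RCA and -0.35 to 0.48 for EC1.2.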

Other observations

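The chromosome neighbours of both genes were looked up in the order of protein-coding genes of the gene table, chosen with the values in view. All 4 adjacent genes had a probe set. AT1G67760, next to AT1G67750, read 67.5 and 39.7 in RKD4-induced seedlings against 175 and 146 in control seedlings, and fell by 1.18 ± 0.22 (adjusted p 0.0151, limma). On its other side PSBY, a photosystem II gene, read 19497 and 18231 in RKD4-induced seedlings against 20186 and 20672 in control seedlings and did not pass (-0.12 ± 0.12). Beside AT3G27400, AT3G27390 read 352 and 406 in RKD4-induced seedlings against 526 and 490 in control seedlings, a log2 change of -0.40 ± 0.13 with an adjusted p of 0.0743 in limma. AT3G27410 read under the pseudocount on all 4 arrays.

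AT5G04310 was the single measured pectate lyase gene with a second probe set, which read 36.1 and 30.3 in RKD4-induced seedlings against 45.3 and 62.4 in control seedlings. Its log2 change of -0.39 ± 0.19 did not pass, as with the brighter probe set (-0.61 ± 0.18).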
